A study of Mus musculus with 56 samples.

Results

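The proteasome genes described here are all the mouse genes whose symbol is Psm, a letter from a to g and a number, as named through the RefSeq accession that the array design gives for each probe. There were 48 such genes among the 20018 genes named on the array, and all 48 had a probe. The samples were lungs, livers and forestomachs from male mice of the MutaMouse strain, a transgenic line with a bacterial reporter for mutation, about 14 weeks old. The mice received olive oil alone (D0) or the polycyclic aromatic hydrocarbon chrysene in that oil, with daily doses per kg body weight of 17.5 mg in D1, 50 mg in D2 and 150 mg in D3, by gavage on 28 days, and tissues were taken 72 h after the last dose. The lung groups from D0 to D3 held 5, 5, 3 and 5 arrays, and those of liver and forestomach 5, 5, 4 and 5 arrays, 56 in all from 19 mice, 1 array for each tissue of a mouse. Each value is a log2 ratio of the tissue RNA (Cy5) to a universal mouse reference RNA (Cy3), which is made from cultured mouse cell lines and was on every array, with no dye swap. Because the tissues are bulk, more cells of a type and more RNA per cell cannot be told apart in any difference below.

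The proteasome is the barrel that degrades proteins tagged with ubiquitin. Its core consists of rings of alpha subunits around rings of beta subunits, of which Psmb6, Psmb7 and Psmb5 carry the proteolytic sites. Interferon gamma and immune cells replace these with Psmb9, Psmb10 and Psmb8, respectively, to give the immunoproteasome, which cuts peptides for display on class I molecules. Caps bind the ends of the barrel: the regulatory particle of ATPases (Psmc) and other subunits (Psmd), the PA28 activator (Psme1, Psme2, Psme3) and PA200 (Psme4), whereas Psmf1 is an inhibitor and the Psmg genes encode chaperones of core assembly.

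The bases before the start of transcription are shown for the 3 immunoproteasome genes, which carry the tissue contrast described below. Psmb5, the constitutive counterpart of Psmb8, is shown beside them for comparison. A RefSeq promoter window (build GRCm38.p6) was found for 40 of the 48 genes, 43 windows in all. The windows read 5′ to 3′ on the strand of the gene and lie at chr17:34197945-34198194 (plus strand), chr17:34187331-34187555 (minus), chr8:105938393-105938642 (minus) and chr14:54617996-54618245 (minus). Capitals mark TTCNNNGAA in Psmb8, the letters of the gamma-activated sequence, and TGACNNNGC in Psmb5, the core of the antioxidant response element. The Psmb9 sequence is the whole stretch of 225 bases between its start and that of Tap1, a peptide transporter gene on the opposite strand.
Psmb8: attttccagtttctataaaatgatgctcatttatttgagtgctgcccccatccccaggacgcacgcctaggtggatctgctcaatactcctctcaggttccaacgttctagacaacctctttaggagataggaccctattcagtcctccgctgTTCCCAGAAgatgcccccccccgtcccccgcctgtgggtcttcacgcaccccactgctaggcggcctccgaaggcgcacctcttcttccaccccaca
Psmb9: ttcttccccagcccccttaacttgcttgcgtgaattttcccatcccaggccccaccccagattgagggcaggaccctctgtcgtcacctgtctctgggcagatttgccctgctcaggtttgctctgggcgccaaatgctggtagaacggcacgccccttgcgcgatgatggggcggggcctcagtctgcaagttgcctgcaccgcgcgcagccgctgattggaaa
Psmb10: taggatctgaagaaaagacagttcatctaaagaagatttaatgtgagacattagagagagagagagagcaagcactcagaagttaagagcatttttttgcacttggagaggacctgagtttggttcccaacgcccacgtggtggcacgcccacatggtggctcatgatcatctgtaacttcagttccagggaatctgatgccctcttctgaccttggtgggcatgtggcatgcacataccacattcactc
Psmb5: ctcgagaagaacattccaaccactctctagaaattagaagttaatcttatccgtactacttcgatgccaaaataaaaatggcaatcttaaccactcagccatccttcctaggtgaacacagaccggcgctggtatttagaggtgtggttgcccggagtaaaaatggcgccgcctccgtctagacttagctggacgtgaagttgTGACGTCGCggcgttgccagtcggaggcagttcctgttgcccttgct
Over the 250 bases before the start and both strands, TTCNNNGAA was found in 2 of the 43 member windows (4.65%; Psmb8 and Psmg1) and in 7.02% of all 32851 windows. TGACNNNGC was found in 5 member windows (11.6%; Psmb5, Psmb6, Psmc6, Psmd9 and Psmd12) and in 10.2% of all. GAAANNGAA, the core of the interferon-stimulated response element, was found in 3 member windows (6.98%; Psmb3, Psmd4 and Psmd9) and in 7.13% of all. No match overlapped another, and a match of letters is a description, not a binding site.

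The array labels were checked against marker genes. All 7 lung markers were well above background in lung, where their mean log2 ratio at D0 was 6.79 against 0.22 in liver and 1.01 in forestomach. All 7 hepatocyte markers were above background in liver (mean 7.15), and all 8 keratinocyte markers in forestomach (mean 4.18). Forestomach arrays differed more among themselves: the mean of 8 glandular stomach markers ran from 0.65 to 6.65 at D0 and from 0.55 to 6.80 at D3, and 18.2 to 50.2% of probes were well above background, against 47.6 to 55.3% in lung and 33.3 to 45.2% in liver. The lung arrays of D3 mice 17 and 19 carried skeletal muscle markers, with means of 5.23 and 5.38 where the other D3 lungs were between -0.92 and -0.72. Each tissue was hybridised on 3 slides of its own, so tissue and slide cannot be told apart.

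Of the 48 genes, 46 were tested in every tissue. Psma8, the testis form of an alpha subunit, and Psmb11, the thymus catalytic subunit, were not well above background on any of the 56 arrays. The tested genes were above background on all arrays for 45 genes in lung, 46 in liver and 37 in forestomach. Psmg2, a core assembly chaperone, was the dimmest of them, above background on 11 of 18 lung, 19 of 19 liver and 5 of 19 forestomach arrays.

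The first comparison asked how the proteasome genes differ between tissues in mice that had no chrysene. Psmb8 was highest in lung and lowest in forestomach, Psmb9 was lower in forestomach than in both other tissues, and Psmb10 was higher in lung than in both. For Psmb8 the D0 log2 ratios were 0.46, 1.10, 0.90, 0.70 and 0.64 in lung, -0.23, 0.15, 0.17, 0.03 and 0.14 in liver, and -1.69, -2.06, -1.63, -1.47 and -2.03 in forestomach. The 3 tissues did not overlap. Psmb8 was 1.63-fold higher in lung than in liver (log2 difference 0.71 ± 0.15 SE, adjusted p = 3.56e-05, limma), 5.80-fold higher in lung than in forestomach (2.54 ± 0.15, adjusted p = 3.177e-20) and 3.55-fold higher in liver than in forestomach (1.83 ± 0.15, adjusted p = 1.954e-15).

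Psmb9, which takes the place of Psmb6, read 0.99, 1.41, 1.31, 1.16 and 1.498 in lung, 0.20, 0.75, 0.84, 1.01 and 0.90 in liver, and -1.23, -1.20, -0.67, -0.85 and -1.24 in forestomach. The forestomach values, above background on 4 of 5 arrays, lay below both other tissues, and lung and liver overlapped. Lung exceeded forestomach by 2.31 ± 0.17 (adjusted p = 1.063e-16) and liver exceeded forestomach by 1.78 ± 0.17 (adjusted p = 3.683e-13). Lung and liver differed by 0.53 ± 0.17 (adjusted p = 0.004349), which is under the fold limit of 1.5. With each array centred on its median and no loess step, this difference was called (1.45, limma adjusted p = 0.02119). The median of all tested probes then moved to 0.64.

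Psmb10, which takes the place of Psmb7, had another order. It read 1.25, 1.53, 1.45, 1.31 and 1.62 in lung, -0.44, -0.15, -0.29, -0.16 and -0.14 in liver, and -0.19, -0.39, -0.84, -0.07 and -0.31 in forestomach. Lung lay above both other tissues, which overlapped. The lung difference was 1.67 ± 0.12 over liver (3.18-fold, adjusted p = 1.381e-17) and 1.79 ± 0.12 over forestomach (3.46-fold, adjusted p = 3.872e-18), whereas liver and forestomach differed by 0.12 ± 0.12 (adjusted p = 0.3696).

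In the deposited ratios the constitutive counterparts did not follow these orders. Whether pseudogene transcripts add to the signal of their probes was not tested. Psmb5 read 0.46, 0.51, 0.51, 0.46 and 0.67 in lung, 0.69, 0.60, 0.55, 0.48 and 0.55 in liver, and 0.77, 0.95, 0.66, 1.17 and 0.81 in forestomach, and none of its differences reached the fold limit (lung minus forestomach -0.35 ± 0.08, adjusted p = 9.011e-05), although liver minus forestomach did with ratios normalised anew (-0.60). Psmb6 reached it in no pair either, with the largest difference between liver and forestomach (0.53 ± 0.13, adjusted p = 0.0003233). Without the loess step, each array centred on its median, both were called higher in lung than in forestomach. Psmb5 differed by 1.41 (limma adjusted p = 0.04998) and Psmb6 by 2.02 (limma adjusted p = 0.01077). Relative to the median of all tested probes, which moved too, these were 0.43 and 1.03. Psmb7 was lower in lung, at -1.65, -0.90, -1.05, -1.04 and -1.22, than in liver, at -0.20, -0.20, 0.01, -0.08 and -0.05, with no overlap (-1.07 ± 0.13, adjusted p = 5.224e-10), and lower in lung than in forestomach (-1.03 ± 0.13, adjusted p = 2.389e-09).

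As a mean over each set on an array, Psmb8, Psmb9 and Psmb10 less Psmb5, Psmb6 and Psmb7 gave 1.34 ± 0.10 (SD, n = 5) in lung, -0.11 ± 0.21 (n = 5) in liver and -1.26 ± 0.30 (n = 5) in forestomach at D0. The value compares tissues only, since ratios of different probes share no scale.

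**Figure D1:**
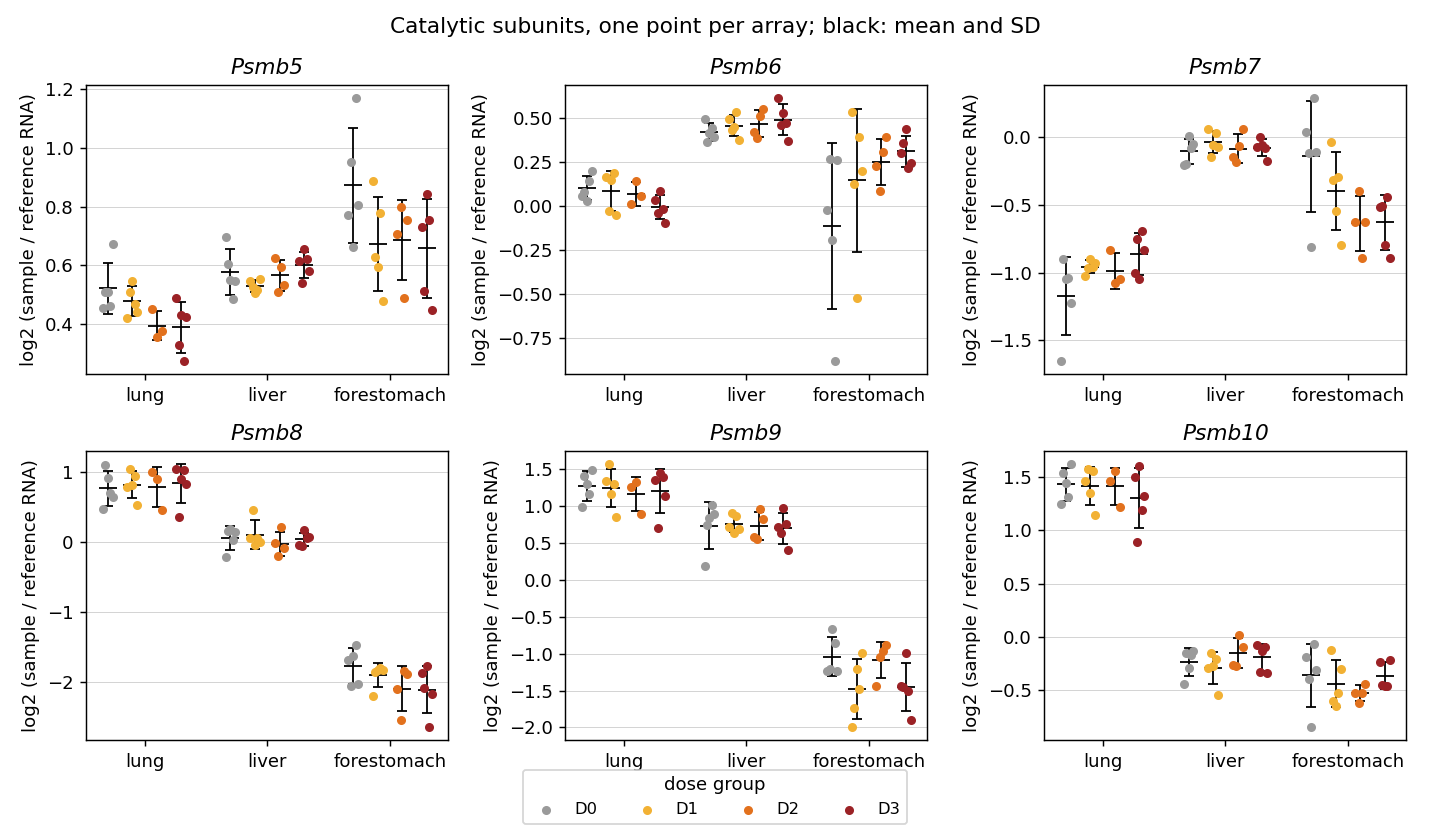
Log2 ratio of sample to reference RNA (vertical axis) for the 6 catalytic subunits in lung, liver and forestomach, one point per array, coloured by dose group from D0 to D3, with the mean and SD in black. Psmb8 steps down from lung to liver to forestomach, Psmb9 is low in forestomach, Psmb10 is high in lung alone, and the dose groups of a tissue overlap.

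The partners of the immunoproteasome shared part of this order. Psme1 and Psme2, the interferon-inducible PA28 subunits, were higher in lung than in forestomach by 1.10 ± 0.08 (adjusted p = 7.352e-17) and 0.99 ± 0.12 (adjusted p = 3.058e-10). The D0 values of Psme1 were 0.42, 0.46, 0.60, 0.42 and 0.72 in lung and -0.39, -0.66, -0.61, -0.69 and -0.54 in forestomach, with no overlap. Psme2 was also higher in lung than in liver (0.97 ± 0.12, adjusted p = 3.237e-10), and for it liver and forestomach differed by 0.03, whereas Psme1 was higher in liver than in forestomach by 0.84 ± 0.08 (adjusted p = 3.332e-13). The near-identical copy Psme2b could add to the signal of the Psme2 probe, which was not tested. As the mean of its 2 probes, Psme2 in lung less forestomach was 0.57, under the fold limit. Psme3, the nuclear PA28 subunit, was highest in liver: it read 2.00, 2.17, 2.79, 2.34 and 2.72 in liver and 1.18, 0.98, 1.09, 1.10 and 1.01 in lung (lung minus liver -1.33 ± 0.12, adjusted p = 1.989e-13), and liver exceeded forestomach by 1.59 ± 0.12 (adjusted p = 9.19e-16), whereas lung and forestomach differed by 0.25 ± 0.12 (adjusted p = 0.07268).

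Among the other genes of antigen display, 12 of class I presentation and 15 of the interferon gamma response, 8 and 12 were called higher in lung than in forestomach and none lower. Between liver and forestomach, 8 and 6 were higher in liver and 0 and 2 lower, and between lung and liver, 3 and 9 were higher in lung and 2 and 3 lower. Of all tested probes, 19.3% were called higher and 18.2% lower in lung than in forestomach, 19% and 22% in liver than in forestomach, and 24.9% and 21.1% in lung than in liver. B2m, the light chain of class I molecules, was 0.99 lower in lung than in liver (log2 difference -0.99 ± 0.20, adjusted p = 2.6e-05), unlike Psmb8. Tap1, across the shared start region from Psmb9, was higher in liver than in forestomach (0.97 ± 0.19, adjusted p = 1.1e-05), with 2 of 5 forestomach arrays above background. Lung minus liver was -0.31 for Tap1 (adjusted p = 0.1373) and 0.53 for Psmb9.

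The marker means of leukocytes and their subsets lay higher on every D0 lung array than on any D0 liver or forestomach array, and their order between liver and forestomach differed from list to list. The mean of 6 leukocyte markers at D0 ran from 0.13 to 0.83 in lung, -1.96 to -1.69 in liver and -2.06 to -0.70 in forestomach, and that of 9 macrophage and dendritic cell markers from 2.22 to 3.06, 0.82 to 1.36 and -0.11 to 0.92. T cell markers (9 genes) ran from 0.29 to 0.71, -0.57 to -0.48 and -1.25 to -0.35, and B cell markers (7 genes) from 0.35 to 0.87, -0.88 to -0.75 and -1.27 to -0.24. Of these, 6 of 9 T cell and 3 of 7 B cell markers were above background on at least 3 liver arrays, and 6 and 2 on forestomach arrays. As group means, leukocyte markers were lower in liver than in forestomach (-1.80 and -1.31), and so were B cell markers (-0.80 and -0.69), whereas T cell markers (-0.53 and -0.75) and macrophage and dendritic cell markers (1.02 and 0.26) were higher in liver, with no test of these means. Their part in the order of the immunoproteasome genes was not tested.

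Over all 46 tested members, 3 were called higher and 16 lower in lung than in liver, with adjusted p of at most 0.05 and a fold of at least 1.5. That is 6.52% and 34.8% of the members, where 24.9% and 21.1% of all tested probes were called. Between lung and forestomach 6 were higher and 13 lower in lung (13.0% and 28.3%, against 19.3% and 18.2% of all probes). Between liver and forestomach 10 were higher and 2 lower in liver (21.7% and 4.35%, against 19% and 22%). The counts depended on the scaling. Without the loess step, each array centred on its median, the median of all tested probes itself moved to 0.98 for lung minus forestomach and 0.64 for lung minus liver, and the members split 42 higher and 0 lower (56.1% and 2.51% of all probes), and 5 higher and 0 lower (41.5% and 5.49% of all probes). For liver minus forestomach the median was 0.18 and the split 14 higher and 0 lower (17.1% and 4.79% of all probes). Relative to that shifted median Psmb8, Psmb9 and Psmb10 were still higher in lung than in forestomach by 3.73, 3.42 and 2.74, and in lung than in liver by 0.87, 0.81 and 1.42. They were higher in liver than in forestomach by 3.02, 2.77 and 1.47. The likeness of liver and forestomach for Psmb10 in the deposited ratios was thus not kept under this scaling. Relative to the shifted median Psmb7, Psmd8, Psmf1, Psmd9 and Psmg2 were also still lower in lung than in liver (-1.01, -1.27, -0.87, -0.67 and -0.50). For lung minus forestomach, however, Psmb7 and Psmd8 turned to 0.25 and 0.21, and Psmd14 and Psmg2 were -0.038 and -0.095.

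**Figure D2:**
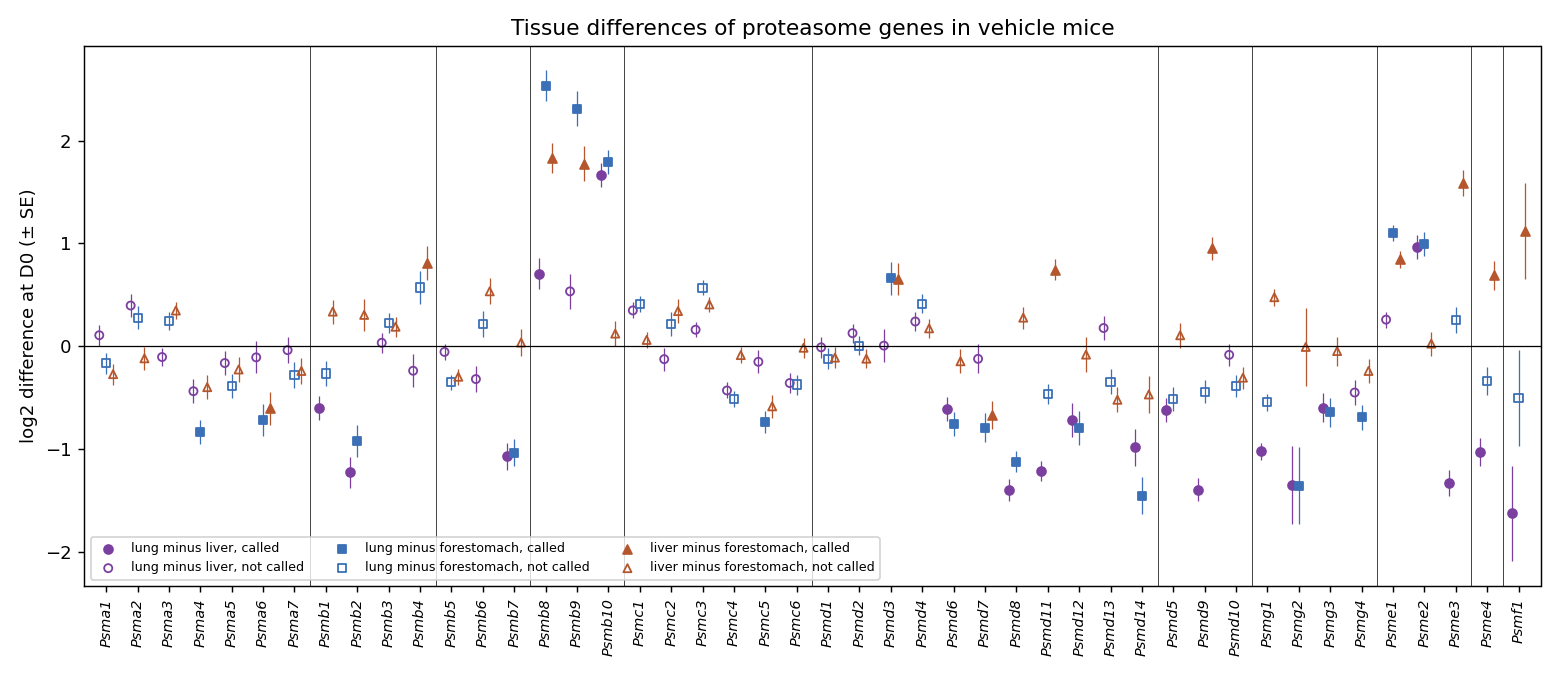
Log2 difference between tissues at D0 with its standard error (vertical axis) for 46 proteasome genes grouped by role, with filled symbols for differences called at adjusted p of at most 0.05 and 1.5-fold. Psmb8, Psmb9 and Psmb10 stand highest for lung minus forestomach, at 2.54, 2.31 and 1.79.

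The member lowest in lung against liver was Psmf1, the inhibitor, which read -1.45, -1.28, -1.53, -1.29 and -1.57 in lung and 0.14, 0.16, 0.11, 0.33 and 0.28 in liver (-1.63 ± 0.47, adjusted p = 0.001988). The SE of this fit comes from a spread shared by all arrays, dosed ones too. For Psmf1 that spread includes the D3 liver of mouse 19, at 5.73 where the other D3 livers lay between 0.23 and 0.52. Psmd8, a lid subunit, was lower by 1.40 ± 0.11 (log2 difference -1.40, adjusted p = 1.661e-16), and Psmd9, a base assembly chaperone, likewise (-1.40 ± 0.11, adjusted p = 6.855e-16). No value of these 3 genes in lung reached the lowest in liver. Psmg2 also differed (-1.35 ± 0.38, adjusted p = 0.00154), with 3 of 5 lung arrays above background. The other called members lower in lung included the core subunits Psmb2 (-1.23) and Psmb7.

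Against forestomach, lung was lowest for Psmd14, the lid deubiquitinase, at -1.14, -1.07, -1.24, -1.27 and -1.21 against 0.57, -0.15, -0.19, 1.05 and 0.07 (-1.45 ± 0.18, adjusted p = 9.318e-10). Psmd8 (-1.12 ± 0.11, adjusted p = 7.127e-13) followed, then Psmb7, given above. Psmg2 was called too (-1.36 ± 0.38, adjusted p = 0.001834), but it was above background on 3 of 5 lung and 2 of 5 forestomach arrays and is not ranked. Psmf1 was higher in liver than in forestomach (1.12 ± 0.47, adjusted p = 0.03387), with 2 of 5 forestomach arrays above background. That call was lost with ratios normalised anew (adjusted p = 0.06804), with normexp background correction (adjusted p = 0.09433) and with no filter on dim probes (adjusted p = 0.05806). Here too the SE rests on a spread that includes the D3 liver of mouse 19. The part of that array in the lost calls was not tested. Between liver and forestomach only Psmd7, a lid subunit (-0.67 ± 0.14, adjusted p = 5.552e-05), and Psma6, an alpha subunit (-0.61 ± 0.16, adjusted p = 0.0007798), were called lower in liver, and for both the groups overlapped. With ratios normalised anew from the scanner signals, both fell under the fold limit (-0.45 and -0.38).

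By role, the 4 beta subunits without a catalytic site had 2 members lower in lung than in liver. None of the 7 alpha subunits and none of the 6 base ATPases was called between lung and liver. Of 11 non-ATPase regulatory subunits 5 were lower in lung than in liver, and of 4 core assembly chaperones 3, where 21.1% of all probes were lower. Between lung and forestomach 2 alpha subunits, 1 ATPase and 5 regulatory subunits were lower in lung, where 18.2% of all probes were, and 1 regulatory subunit, Psmd3, was higher (0.66 ± 0.16, adjusted p = 0.0003363). Among 22 partners and regulators of the proteasome, such as ubiquitin genes and receptors, 3 were higher and 6 lower in lung than in liver, where 24.9% and 21.1% of all probes were. Adrm1, a ubiquitin receptor of the cap, was one of the 6 (-1.29 ± 0.11, adjusted p = 2.738e-14).

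The second comparison asked whether chrysene changed the proteasome genes within a tissue. No member was called at any dose in any tissue. In lung 0 of 46 were called at D1, D2 and D3 by limma, where 0%, 0% and 0.127% of all probes were called. In liver 0 were called at each dose, against 0% of all probes each time, and in forestomach 0, against 0%, 0% and 0.00727%. Before adjustment, p reached 0.05 or less for 1, 3 and 8 members in the D1, D2 and D3 lungs, for 1, 0 and 1 in the livers, and for 3, 12 and 13 in the forestomachs. The shares of all probes were 5.88%, 6.12% and 16.2% in lung, 3.61%, 3.79% and 4.78% in liver, and 4.17%, 7.53% and 9.24% in forestomach. A trend over the dose steps called 0 members in lung, liver and forestomach, against 0.168%, 0% and 0.04% of all probes, while 9, 1 and 13 members had p of 0.05 or less before adjustment, against 17.4%, 5.42% and 9.18% of all probes. Of all 56 arrays, 50 lay in the slide column that matches their dose step, so dose and column nearly coincide in every tissue. With the column as a covariate the D3 changes of Psmb8 and Psmb9 in liver were 0.22 and 0.33 (limma adjusted p = 0.9905 for both), against -0.02 and -0.04 without it. Since dose and column nearly coincide, such a fit cannot settle the direction of a change.

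In lung the changes at D3 were small. The median over the 46 members was -0.05 and that over all probes -0.03, and 3 members were higher and 5 lower at the unadjusted threshold, against 6.06% and 10.1% of all probes. Psme4 had the lowest value, at 0.10, 0.01, -0.27, -0.02 and 0.03 in D0 and -0.19, -0.23, -0.65, -0.73 and -0.60 in D3. The ranges overlapped by the D0 value of -0.27. The change was -0.45 ± 0.11 (adjusted p = 0.08398), and its trend over the dose steps passed the adjusted threshold (-0.45, adjusted p = 0.03698) but not the fold limit. The lung arrays of D0 all lay in the same slide column, where no dosed lung array lay. With the column as a covariate the Psme4 change was 0.31 (limma adjusted p = 0.9999), from a fit that cannot separate dose and column well. In lung the step from D0 to any dose and that column cannot be told apart.

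Psmd10, a base assembly chaperone also known as gankyrin, was lower in all 5 D3 lungs, at -0.77, -0.82, -1.02, -1.10 and -0.89, than in the D0 lungs, at -0.54, -0.71, -0.72, -0.75 and -0.63 (-0.25 ± 0.07, adjusted p = 0.1184). Psmg3 was the other member without overlap in lung (-0.23 ± 0.14, adjusted p = 0.4347). These were 2 of 46 members with all D3 values below D0 and 0 above, where 1.94% of all probes lay below and 0.68% above. The highest changes were 0.31 ± 0.11 for Psmb7 (adjusted p = 0.2179), 0.24 ± 0.10 for Psmd12 (adjusted p = 0.2472) and 0.15 ± 0.07 for Psma7 (adjusted p = 0.2935). For Psmb7 the D0 lung of mouse 1 at -1.65 lay below the others, and the change was 0.19 without it. The second probe of Psmd12 moved the other way (-0.25).

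In lung the inducible genes showed no called change. The mean of Psmb8, Psmb9 and Psmb10 was 1.15, 1.16, 1.12 and 1.11 from D0 to D3. Psmb8 at D3 read 1.04, 0.36, 0.90, 1.03 and 0.83 (0.07 ± 0.15, adjusted p = 0.8595). Psmb9 changed by -0.06 and Psmb10 by -0.13, and all D3 ranges overlapped with D0. Psmb5 and Psmb6 changed by -0.13 ± 0.06 (adjusted p = 0.2816) and -0.11 ± 0.06 (adjusted p = 0.4136), and Psme1 and Psme2 by -0.11 ± 0.07 (adjusted p = 0.4585) and -0.21 ± 0.12 (adjusted p = 0.4149). The difference between the immunoproteasome and counterpart means changed by -0.06 between D0 and D3, with single arrays from -0.53 to 0.16 relative to D0, and by 0.07 without D3 mice 17 and 19. Besides skeletal muscle markers, those 2 lungs carried keratinocyte markers at means of 3.28 and 3.64, where the other D3 lungs lay between -0.33 and -0.09. In the lung of mouse 19 the mean of T cell markers was 1.75 (other D3 lungs 0.30 to 0.43) and that of B cell markers 1.71 (other D3 lungs 0.79 to 1.04). The part of these markers in the lung changes was not tested.

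In liver the median change at D3 was 0.03 over the members and -0.01 over all probes, and 1 member was higher and 0 lower at the unadjusted threshold, against 2.46% and 2.33% of all probes. That member was Psme3, at 2.00, 2.17, 2.79, 2.34 and 2.72 in D0 and 2.76, 2.73, 2.70, 2.64 and 2.75 in D3 (0.31 ± 0.12, adjusted p = 0.9651). The groups overlapped and D0 was the wider. Psmf1 had the largest fitted change (1.25 ± 0.70, adjusted p = 0.9998), which rested on 1 array. Its D3 values were 0.52, 0.38, 0.41, 5.73 and 0.23, and without mouse 19 the change was 0.18.

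Psmd9 changed by 0.14 ± 0.09 in liver, and the lowest were Psmg2 (-0.16 ± 0.11), Psmg4 (-0.13 ± 0.08) and Psme1 (-0.13 ± 0.09), each with adjusted p = 0.9998. Psmb8, Psmb9 and Psmb10 changed by -0.02, -0.04 and 0.04, and Psmb5, Psmb6 and Psmb7 by 0.03, 0.07 and 0.03. The immunoproteasome mean less the counterpart mean changed by -0.05, with arrays from -0.14 to 0.07, and by -0.14 without D0 mouse 1. Without D0 mouse 2, 4 or 5 or D3 mouse 17 it was -0.020, -0.016, -0.017 and -0.022, and without D3 mouse 18 it was -0.075. Psme2 changed by 0.02. No member had all D3 livers above or below D0, where 0.348% and 0.388% of all probes did.

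In forestomach the spread was wider, with a median SD of 0.32 over the members at D0 against 0.10 in lung and 0.11 in liver. At D3, 6 members were higher and 7 lower at the unadjusted threshold, against 5.45% and 3.78% of all probes, and none was called. Psmd3, a lid subunit, read -1.37, -0.91, -1.03, -1.66 and -0.68 in D0 and -0.86, -0.27, -0.59, -0.30 and -0.05 in D3 (0.72 ± 0.24, adjusted p = 0.3142). Its groups overlapped. Psmc2, a base ATPase, followed at 0.53 ± 0.17 (adjusted p = 0.2804), and Psmd4, a ubiquitin receptor, at 0.49 ± 0.14 (adjusted p = 0.2113). With slide as a block, the trend of Psmd3 over the dose steps was called (0.71 ± 0.15, limma adjusted p = 0.0432). The share of all probes called in that fit was not determined. At D3 the slide block raised the number of all probes at the unadjusted threshold from 1500 to 2287 higher and from 1041 to 1686 lower. The members at that threshold went from 6 to 4 higher and from 7 to 8 lower.

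On the low side were Psmd14 (-0.61 ± 0.25, adjusted p = 0.4358), Psma6 (-0.53 ± 0.24, adjusted p = 0.4919) and Psmd10 (-0.52 ± 0.15, adjusted p = 0.2329). Psmd10 read -0.01, -0.41, -0.09, -0.38 and -0.52 in D0 and -0.72, -0.90, -0.62, -0.71 and -1.06 in D3, with no overlap. Psmc3, a base ATPase, was the only member with all D3 values above D0, at 0.28, 0.29, 0.21, 0.30 and 0.18 against -0.27, 0.10, -0.10, -0.48 and 0.15 (0.37 ± 0.11, adjusted p = 0.2214). Of all probes, 0.865% lay above D0 in this way and 0.52% below.

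Psmb8 read -1.88, -2.09, -1.77, -2.65 and -2.17 at D3 in forestomach, a change of -0.34 with overlap, and Psmb9 changed by -0.42 ± 0.20 (adjusted p = 0.5323), while Psmb10 changed by -0.004 on the log2 scale. Psmb6 changed by 0.43 ± 0.20 (adjusted p = 0.5401) and Psmb7 by -0.49 ± 0.18 (adjusted p = 0.3582), in opposite directions. Psmb5 changed by -0.21 ± 0.12 (adjusted p = 0.6203), Psme1 by 0.09 ± 0.09 (adjusted p = 0.8325) and Psme2 by -0.05 ± 0.13 (adjusted p = 0.9548). The immunoproteasome mean less the counterpart mean changed by -0.16 between D0 and D3, and the D3 arrays ranged from -0.45 to 0.03 relative to D0. Without D0 mouse 3 or 4 or D3 mouse 19 it was -0.077, -0.092 and -0.087, and without D0 mouse 2 it was -0.24. Marker means at D3 relative to D0 were -0.38 for leukocytes (single arrays -0.95 to 0.31), -0.14 for both T and B cells, 0.09 for macrophages and dendritic cells, -1.36 for glandular stomach (-3.45 to 2.81) and 0.34 for keratinocytes (-0.12 to 1.03). Their part in these changes was not tested.

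One D0 forestomach array, that of mouse 4, was the highest of the 5 for 25 of the 46 members and the lowest for 10. It had the fewest probes above background among them, 18.2% against 23.5 to 48.8%. Without it the D3 changes were 0.58 for Psmd3, 0.34 for Psmc2, 0.37 for Psmd4, -0.42 for Psmd14, 0.23 for Psmb6 and -0.38 for Psmb7, and that of Psmd10 was -0.545. The mean of the glandular stomach markers on that array was 0.65. The part of that array's dimness or of the glandular signal in these changes was not tested.

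**Figure D3:**
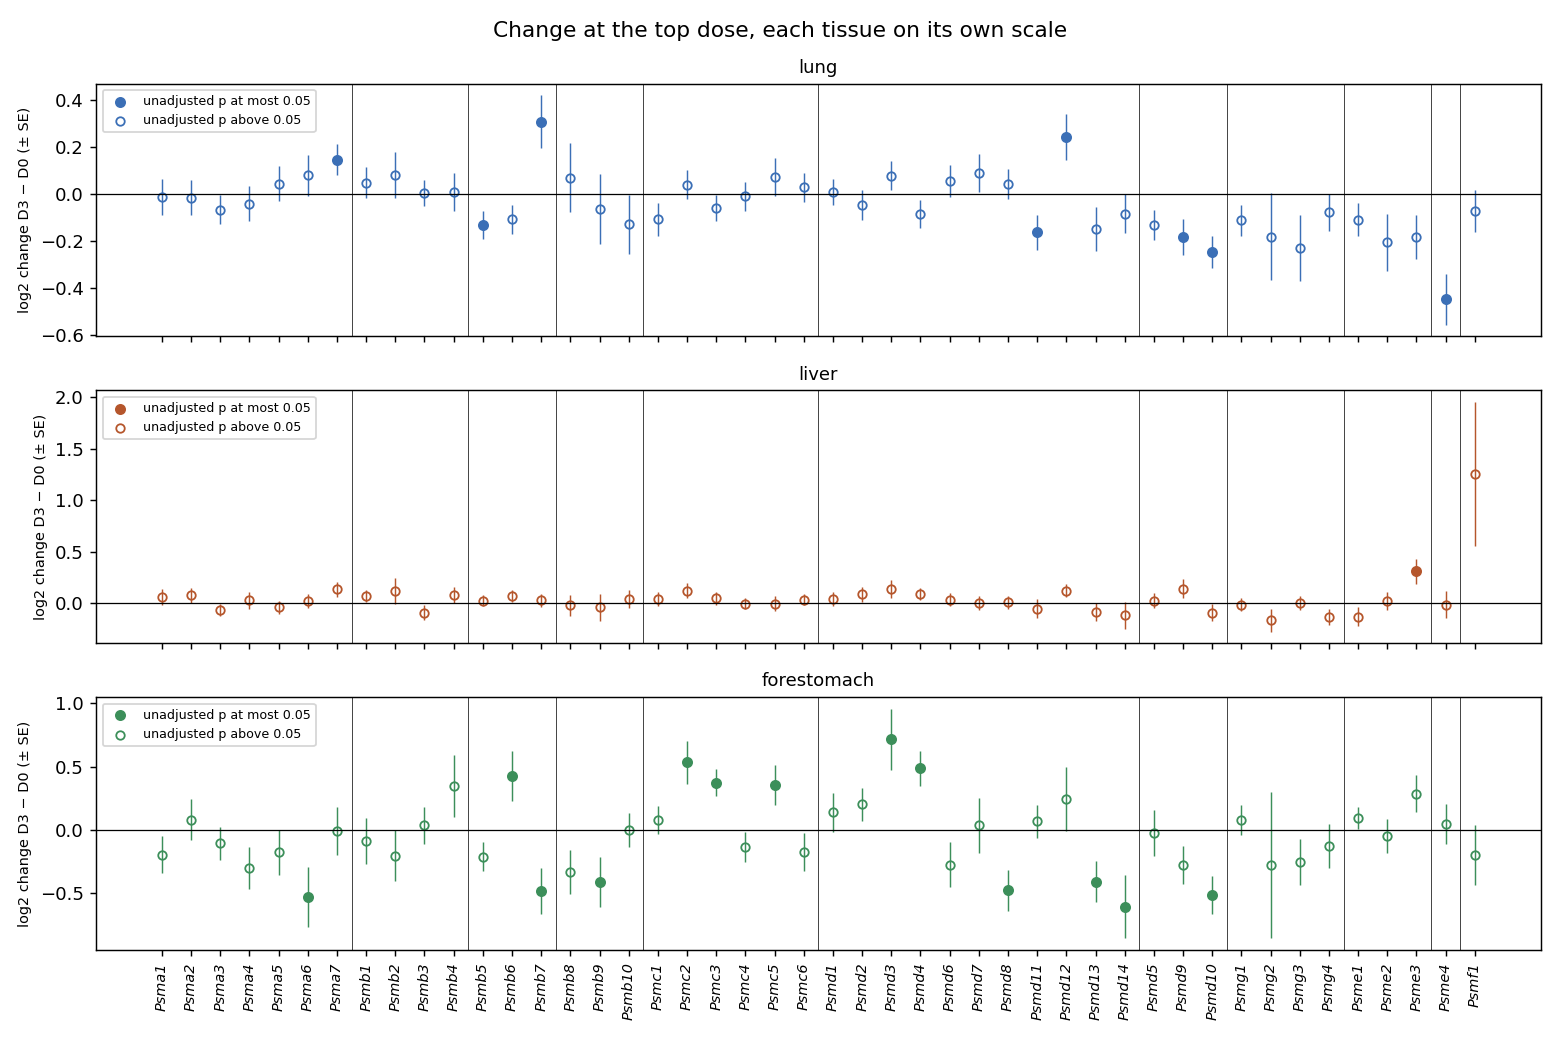
Log2 change between D3 and D0 with its standard error (vertical axis, a scale of its own for each tissue) for 46 proteasome genes grouped by role, with filled symbols for p of 0.05 or less before adjustment. Filled symbols number 8 in lung, 1 in liver and 13 in forestomach, and the liver value of Psmf1 at 1.25 rests on mouse 19.

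For 11 members a second probe was on the array. At D3 the 2 probes had opposite signs for 3 genes in lung, 3 in liver and 7 in forestomach. In forestomach Psmc2 changed by 0.53 on the brighter probe and by -0.17 on the other, Psmc3 by 0.37 and -0.13, and Psma4 by -0.31 and 0.16. Both probes of Psmd10 were lower in forestomach (-0.52 and -0.36) and in lung (-0.25 and -0.07), and both of Psme4 were lower in lung (-0.45 and -0.34).

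**Figure D4:**
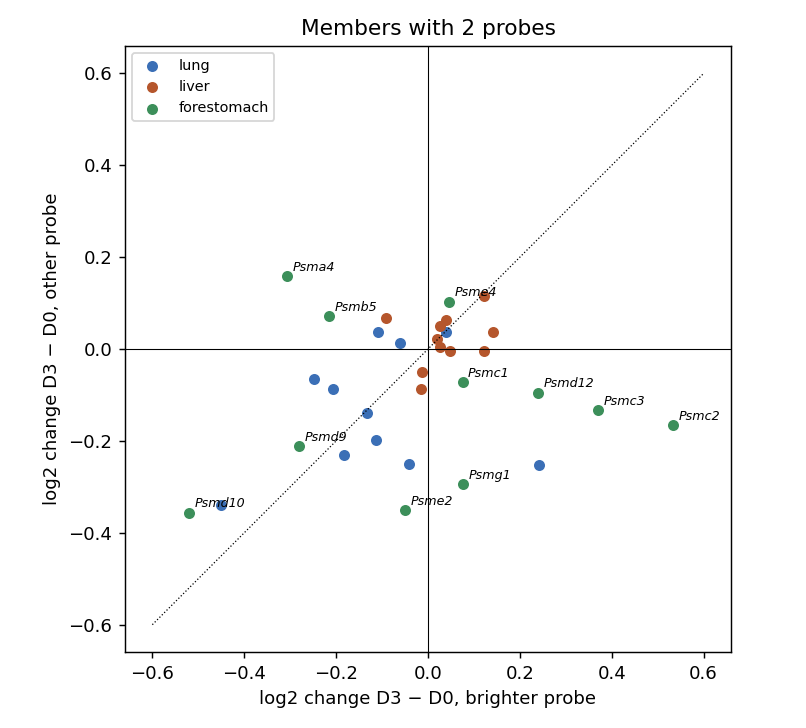
Log2 change between D3 and D0 on the brighter probe (horizontal axis) and on the other probe (vertical axis) for the 11 genes with 2 probes, one point per gene and tissue, with forestomach genes named. The dotted line marks equal changes, and 7 forestomach points lie in the quadrants of opposite sign.

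The third comparison asked whether the D3 effect differed between tissues. It was called for 1 member, Psmb7, between lung and forestomach (lung minus forestomach 0.80 ± 0.18, adjusted p = 0.02383), where 0.707% of all probes were called. Psmd4 (-0.57 ± 0.13, adjusted p = 0.01877) and Psmc3 (-0.43 ± 0.10, adjusted p = 0.02652) passed the adjusted threshold and not the fold limit. Between lung and liver 0 members were called, against 0% of all probes, and between liver and forestomach 0, against 0.0776%. Before adjustment, p was 0.05 or less for 12 members between lung and forestomach, 4 between lung and liver and 13 between liver and forestomach, against 12.9%, 5.25% and 9.93% of all probes. The Psmb7 call was lost when only the arrays of the 2 tissues were fitted (0.80, adjusted p = 0.1313), without the lung arrays of D3 mice 17 and 19 (0.70, adjusted p = 0.1518), and without mouse 1 (0.63, adjusted p = 0.1242), 4 (0.72, adjusted p = 0.08245), 17 (0.80, adjusted p = 0.09132) or 20 (0.72, adjusted p = 0.08122).

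The other gene lists at D3 gave no call either. Among 22 partners and regulators the median change was 0.00 in lung, -0.01 in liver and 0.18 in forestomach, with 0, 0 and 4 higher and 3, 1 and 0 lower at the unadjusted threshold, where 6.06%, 2.46% and 5.45% of all probes were higher and 10.1%, 2.33% and 3.78% lower. For the 12 class I genes the medians were -0.10, -0.02 and -0.19, and for the 15 interferon gamma response genes 0.05, 0.09 and -0.06. In lung, Pomp, the chaperone that matures the core, changed by -0.17 (adjusted p = 0.1939), and in liver Irf1, an activator of the immunoproteasome genes, by 0.44 (adjusted p = 0.9651).

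The last comparison used the mice themselves, as deviations from the mean of their dose group. Within lung the inducible genes went together: Pearson's r was 0.90 for Psmb9 with Psmb10 (Spearman's rho 0.87, adjusted permutation p = 0.0012, n = 18), 0.84 for Psmb8 with Psmb9 (rho 0.68, adjusted permutation p = 0.0053) and 0.74 for Psmb8 with Psmb10 (rho 0.62, adjusted permutation p = 0.0152 for r and 0.0516 for rho), and 0.77 for Psme1 with Psme2 (rho 0.80, adjusted permutation p = 0.0152). Without the 2 mice farthest from the median, r was 0.81, 0.74, 0.57 and 0.66, and only the first still passed (adjusted permutation p = 0.0196, 0.0593, 0.17 and 0.17). With slide removed as well r was 0.90, 0.84, 0.73 and 0.73, and within the 2 slides with at least 6 lung arrays it ran from 0.53 to 0.96 over these pairs. In liver r was 0.75 for Psmb9 with Psmb10 (rho 0.72, adjusted permutation p = 0.0053, n = 19) and 0.65 for Psmb8 with Psmb9 (rho 0.68, adjusted permutation p = 0.0249), and neither passed without the 2 farthest mice (r = 0.67 and 0.65, adjusted permutation p = 0.0564 and 0.206). With slide removed these were 0.72 and 0.76, and within single slides 0.24 to 0.85 and 0.46 to 0.83. Psmb8 with Psmb10 (r = 0.60, rho 0.59, adjusted permutation p = 0.0726) and Psme1 with Psme2 (r = 0.31, rho 0.26, adjusted permutation p = 0.516) did not pass in liver, although the former did with slide removed (0.66, adjusted permutation p = 0.0228; the latter 0.38, adjusted permutation p = 0.428), and within slides their r ran from -0.29 to 0.87 and from -0.33 to 0.69. In forestomach r was -0.37 for Psmb9 with Psmb10 (rho -0.31, adjusted permutation p = 0.331, n = 19) and 0.50 for Psmb8 with Psmb9 (rho 0.61, adjusted permutation p = 0.111 for r and 0.0371 for rho). The latter was 0.68 without the 2 farthest mice (adjusted permutation p = 0.0196) but 0.27 with slide removed (adjusted permutation p = 0.642), and 0.34 and 0.25 within slides. For Psmb8 with Psmb10 it was 0.01 (rho 0.04, adjusted permutation p = 0.96) and 0.51 with slide removed (adjusted permutation p = 0.0224; 0.54 and 0.57 within slides), and for Psme1 with Psme2 0.33 (rho 0.33, adjusted permutation p = 0.516; 0.05 and 0.68 within slides). The values of one array share its hybridisation and depth of signal.

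Across tissues of the same mouse none of 18 relations passed adjustment over the 30 relations of the family by Pearson's r, and 1 passed by Spearman's rho. The highest r was 0.62 for Psmb10 between lung and liver (rho 0.64, permutation p = 0.0128, adjusted permutation p = 0.0549 for r and 0.0481 for rho, n = 18), then 0.57 for Psmb6 (rho 0.58, adjusted permutation p = 0.0726), 0.48 for Psmb8 (rho 0.43, adjusted permutation p = 0.145) and 0.48 for Psmb9 (rho 0.56, adjusted permutation p = 0.14). With slide removed as well, Psmb10 between lung and liver had r = 0.69 (adjusted permutation p = 0.0172), and without the 2 mice farthest from the median of lung r was 0.45.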

How the data were processed

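RNA of lung, liver and forestomach was hybridised on two-colour Agilent mouse arrays. The deposited values are log2 ratios of Cy5 sample to Cy3 reference, which the authors normalised by loess after median signals were read. The deposited scanner intensity files gave flags, background and slide position. A ratio made anew from those intensities (limma loess) correlated with the deposited one at 0.977 to 0.998 on each array.

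Of 55681 probes, 26413 were named through RefSeq accessions, and the probe with the highest mean red signal in a tissue stood for a gene. In the fits between tissues, 1 probe was used for each gene and pair. A probe was tested where it was well above background on at least 3 arrays. limma 3.58.1 in R 4.3.3 was fitted per tissue for dose and over all arrays for tissues, in place of the permutation test of the study's methods, with Benjamini-Hochberg adjustment over all tested probes. Calls needed adjusted p of at most 0.05 and a fold of at least 1.5. P-values measure the spread between these animals, and the number of arrays limits precision. In the fits over all arrays, a single spread per probe is shared by all tissues and doses. The median SD of the members at D0 was 0.32 in forestomach, 0.10 in lung and 0.11 in liver. The SE of a difference with forestomach thus rests partly on the tighter lung and liver arrays. The main fit between tissues also leaves out that the tissues share mice. Relations between mice used 100000 permutations (Python 3.11.15, scipy 1.17.1). The code of the fits was run on simulated data of independent noise with a known added change. Those data held no slide, column or array effects and so give no information on them.

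The members and lists were chosen with earlier results of these data known. Described in every tissue were Psmb5 to Psmb10, Psme1 and Psme2, the 3 highest and 3 lowest members at D3 in each tissue, and the 4 largest called differences in each direction for a tissue pair. Other members are named where a call, a group without overlap or a second probe is described, chosen after their values were seen. Tissues with the same mouse number come from the same animal; their deviations from the group means correlated with a median r of 0.158 for lung with liver, -0.018 for lung with forestomach and 0.102 for liver with forestomach. Alternatives were other normalisations, probe choices and filters, slide, slide column or mouse in the fit, and left-out arrays. Leaving out each mouse, or the lung arrays of D3 mice 17 and 19, from the test of tissue differences in the D3 effect was chosen after seeing the data.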

Additional observations from a re-analysis of the deposited data

Results flagged for a closer look

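The arrays of each tissue and dose group, except the 3 arrays of lung D2, were examined for a single array far from the rest, and 7 were found among 158 such sets, where chance gives about 1 in 20. Psmf1 in the D3 liver of mouse 19 read 5.73, while the other 4 arrays lay between 0.23 and 0.52. Psmb8 in the D1 liver of mouse 7 read 0.46 against -0.06 to 0.06 in the others, and in the D1 forestomach of mouse 6 it read -2.20 against -1.86 to -1.80. Psmb5 in the D0 lung of mouse 5 read 0.67 against 0.46 to 0.51. Psmg4 in liver read -0.92 in D0 mouse 1 against -0.69 to -0.62, and -0.69 in D3 mouse 17 against -0.91 to -0.86. The immunoproteasome mean less the counterpart mean was -0.48 in the D0 liver of mouse 1 against -0.08 to 0.01.

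The D3 effect in lung and forestomach differed at the adjusted threshold, by an interaction test in limma, for 3 members. Only Psmb7 also reached the fold limit, where 0.707% of all probes did both. The difference (lung minus forestomach) was 0.80 for Psmb7 (adjusted p = 0.02383), -0.43 for Psmc3 (adjusted p = 0.02652) and -0.57 for Psmd4 (adjusted p = 0.01877). The second probe of Psmc3 moved the other way in forestomach, and the Psmb7 call was lost in 6 of the alternatives named in the report.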

How the results depend on the processing

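Without the loess step and with each array centred on its median, the median of all probes moved to 0.64 for lung minus liver, 0.98 for lung minus forestomach, 0.18 for liver minus forestomach, 0.12 for lung D3 and 0.19 for forestomach D3, and the values that follow changed sign. In lung at D3 Psmb5 was 0.092, Psmb6 0.14, Psmb9 0.16, Psmb10 0.11, Psme1 0.13, Psme2 0.036 and Psmg3 0.0088. In liver at D3 Psmb5 was -0.074, Psmb6 -0.032, Psmb7 -0.043, Psmb10 -0.036 and Psme2 -0.0735. In forestomach at D3 Psmb5 was 0.24, Psmb7 0.084, Psmb8 0.20, Psmb9 0.080, Psmb10 0.54, Psme2 0.46 and Psma6 0.015. At D0 Psmb5, Psmb6 and Psmg2 were 0.50, 0.23 and 0.14 for lung minus liver, Psmb5, Psmb7, Psmd14, Psmg2 and Psmd8 were 1.41, 1.23, 0.94, 0.89 and 1.19 for lung minus forestomach, and Psmb5, Psmd7 and Psma6 were 0.91, 0.70 and 0.95 for liver minus forestomach. Members called numbered 5 for lung against liver and 42 for lung against forestomach, with the shares of all probes given in the report. With no fold limit they numbered 30, 38 and 26 for the 3 pairs, where 68.3%, 61% and 63% of all probes passed. With the slide column as a covariate, lung D3 gave Psmb6 0.087, Psmb7 -0.25, Psmb9 0.025, Psmb10 0.17, Psme4 0.31 and Psmd12 -0.058. In the same fit liver D3 gave Psmb5 -0.078, Psmb6 -0.023, Psmb8 0.22, Psmb9 0.33, Psme1 0.0022 and Psmg4 0.035, and forestomach D3 gave Psmb10 0.066 and Psme2 0.15. Each of these column values had a limma adjusted p of at least 0.881, and dose and column nearly coincide. With ratios made anew, liver D3 gave Psmb5 -0.054, Psmb6 -0.011, Psmb7 -0.0005, Psmb10 -0.0018 and Psme2 -0.048, forestomach D3 gave Psmb10 0.041, lung minus liver Psmb5 0.045 and liver minus forestomach Psme2 -0.021. With normexp before loess the same gave Psmb5 -0.027, Psmb8 0.0073, Psmb9 0.0215 and Psme2 -0.0175 in liver, Psmb10 0.0498 in forestomach, Psmb5 0.0855 for lung minus liver and Psme2 -0.057 for liver minus forestomach. With the mean of all probes Psmd12 in lung was -0.0053 and Psme2 for liver minus forestomach -0.18. With slide as a block liver D3 gave Psmb8 0.0033 and Psme2 -0.0038, and the forestomach trend called 1 member, Psmd3. The share of all probes called in that fit was not determined. Without D3 mice 17 and 19 lung Psmb9 was 0.0397, Psmb10 0.045 and the immunoproteasome less counterpart mean 0.067. The cause was not tested for any of these.

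With 1 array left out at a time, D3 changes ranged from -0.0047 to 0.19 for Psmb8 and -0.14 to 0.059 for Psmb9 in lung, from -0.089 to 0.011 for Psmb8, -0.18 to 0.034 for Psmb9, -0.006 to 0.0801 for Psmb10 and -0.055 to 0.059 for Psme2 in liver, and from -0.12 to 0.0701 for Psmb10 and -0.11 to 0.0156 for Psme2 in forestomach. The immunoproteasome less counterpart mean in lung ranged from -0.12 to 0.052. With 1 mouse left out at a time, in all its tissues, liver minus forestomach at D0 ranged from -0.061 to 0.11 for Psme2 and -0.16 to 0.14 for Psmb7. In those fits calls at D0 ranged from 18 to 19, 16 to 22 and 8 to 14 for the 3 pairs. The members whose D3 effect was called different between lung and forestomach ranged from 0 to 3 with a mouse left out, and were 0 without the lung arrays of D3 mice 17 and 19 and 0 with only the arrays of the 2 tissues. With mouse as a replicate block, calls at D0 were 19, 19 and 12 and calls of the D3 effect 0, 1 and 0, as without it. Relations across tissues that passed numbered 1 with slide removed, and those within a tissue 8 of 12 with slide removed and 2 without the 2 farthest mice, against 6. Among values of named genes under an alternative, 1930 kept direction and side of the threshold, 17 passed it anew, 26 no longer passed and 86 changed sign. Members were above background on fewest arrays in forestomach, which limits values there most.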
